A study of Homo sapiens with 8 samples.

Results

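Matrix metalloproteinases (MMPs) and their tissue inhibitors (TIMPs) were examined in Rh41, a human alveolar rhabdomyosarcoma line with the PAX3-FOXO1 fusion. The genes were 8 by symbol, the proteases MMP2, MMP9, MMP14, MMP15 and MMP16 and the inhibitors TIMP1, TIMP2 and TIMP3, of 60234 genes in the table. Each of the 8 symbols stood on 1 Ensembl identifier, and all 8 genes passed the filter for testing, a mean over the libraries of 1 CPM or more, where CPM is the read count normalised to the library total. RNA was compared between 4 control libraries (replicates 1 to 4) and 4 siG9a libraries (replicates 1 to 4), in which G9a was knocked down. G9a, encoded by EHMT2, methylates lysine 9 of histone H3. All 8 libraries came from this 1 cell line and differ by the knockdown only, as far as the labels say. The sample labels write siG9a and the series title shG9a, and neither gives the reagent's sequence, the time after knockdown or what the control cells received. The series calls the replicates biological.

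MMPs are zinc-dependent proteases that are made as inactive precursors and cut collagens and other parts of the extracellular matrix. MMP14, MMP15 and MMP16 are membrane-type MMPs held at the cell surface, while MMP2 and MMP9, the gelatinases, are secreted. TIMPs bind the active site of MMPs, and TIMP2 also has a positive role, since at the cell surface a complex of MMP14 and TIMP2 captures the MMP2 precursor for activation by a further MMP14 molecule. In muscle and in muscle-derived tumours these enzymes are known for matrix remodelling and cell invasion.

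The RefSeq table of promoter windows matched 4 of the 8 genes, MMP14, MMP15, TIMP1 and TIMP3. The sequences of MMP14, TIMP1 and TIMP3 are shown because these genes are the matched ones that the paired comparison called; in replicate 4 TIMP3 was above control, unlike MMP14 and TIMP1. Each is the 250 bases before the RefSeq start (GRCh38.p14, plus strand, 5′ to 3′), with GC boxes, searched as GGGCGG on both strands, in capitals. These windows are chr14:22836335-22836584 for MMP14, chrX:47582186-47582435 for TIMP1 and chr22:32801455-32801704 for TIMP3.
MMP14: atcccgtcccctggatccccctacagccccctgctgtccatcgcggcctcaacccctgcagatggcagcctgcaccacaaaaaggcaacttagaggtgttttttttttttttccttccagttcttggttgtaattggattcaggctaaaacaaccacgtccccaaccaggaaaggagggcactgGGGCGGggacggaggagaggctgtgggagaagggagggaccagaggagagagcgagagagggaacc
TIMP1: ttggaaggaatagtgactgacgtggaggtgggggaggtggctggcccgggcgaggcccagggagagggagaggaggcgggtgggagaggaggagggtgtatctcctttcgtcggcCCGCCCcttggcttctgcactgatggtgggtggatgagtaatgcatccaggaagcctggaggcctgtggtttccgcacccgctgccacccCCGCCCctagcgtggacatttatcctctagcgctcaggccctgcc
TIMP3: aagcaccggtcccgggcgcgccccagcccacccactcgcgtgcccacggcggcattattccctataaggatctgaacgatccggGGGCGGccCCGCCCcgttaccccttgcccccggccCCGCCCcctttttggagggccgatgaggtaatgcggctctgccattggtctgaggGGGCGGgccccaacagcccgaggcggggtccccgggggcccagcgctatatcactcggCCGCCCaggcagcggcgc
The MMP14 window held 1 GC box, TIMP1 held 2, and TIMP3 and MMP15 held 5 each. At least 1 GC box was found in 42.6% of all 35116 RefSeq windows cut in the same way. The windows differed in CG dinucleotides, the sites of DNA methylation, with 7 in MMP14, 12 in TIMP1, 26 in TIMP3 and 31 in MMP15, where the median window held 11. None of the 4 windows held TGANTCA (the consensus AP-1 site, in 6.57% of all windows), CAGCTG (an E-box, in 14.0%) or TATAAA (in 10.7%). Each was searched on both strands and as an exact match only, so variants of these sites were not counted. Among the 3 printed windows, MMP14 lay below the median in CG dinucleotides and TIMP3 above it. TIMP1 lay close to the median, with fewer CG dinucleotides in 51.5% of all windows.

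Libraries held 1458825 to 1938665 reads assigned to genes, and 1 read was worth 0.516 to 0.685 CPM. The targeted gene, EHMT2, was at 57.6, 68.1, 87.3 and 88.3 CPM in control replicates 1 to 4 and at 19.6, 35.1, 33.1 and 58.5 CPM in siG9a, lower in 4 of 4 pairs of the same number. EHMT2 stands on 7 identifiers in the table, and these values are those of 1 of them, the one with the highest mean. The groups overlapped (exact permutation test, two-sided p = 0.0571, where 4 against 4 can reach 0.0286). Exons of EHMT2 overlap those of the antisense gene EHMT2-AS1. Both replicate 3 libraries stood apart. The summed level of 8 rhabdomyosarcoma markers, all 8 at a mean of at least 1 CPM, was 322 CPM in control replicate 3 (1633 to 1729 in the other control libraries) and 292 CPM in siG9a replicate 3 (930 to 1299 in the others). The sum of 4 neural markers, nearly all from NEFM and NEFL, was 9611 and 8930 CPM in these libraries. The replicate 1 libraries lay at the other end, at 189 CPM in control and 219 CPM in siG9a. Replicates 2 and 4 lay between, at 1818 to 2951 CPM. Summed fibroblast markers (3 of 6 at a mean of 1 CPM or more) lay between 3.67 and 19.2 CPM in control and between 1.14 and 12.9 CPM in siG9a, with DCN, LUM and THY1 near 0. Summed epithelial markers lay between 10.3 and 75.6 CPM in control, highest in replicate 3, and between 23.5 and 43.96 CPM in siG9a. Leukocyte and endothelial marker sums stayed at or below 5.14 CPM, with CDH5 at 0. The rhabdomyosarcoma marker sum was lower in siG9a in 4 of 4 pairs, and the share of mitochondrial reads was higher in 4 of 4 (4.59 to 9.18% in control, 5.21 to 13.7% in siG9a). The part of these differences in the results below was not tested.

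The test was limma on log2(CPM + 1) over 15092 genes, and every adjusted p below is a Benjamini-Hochberg value over all of them, two-sided, with a threshold of 0.05. In the unpaired fit, with the group as its only term, 0 genes were called (0%), and thus 0 of the 8 genes, with 1880 genes and 3 of the 8 (MMP2, MMP16 and TIMP1) at an unadjusted p under 0.05. On the reads, unpaired edgeR called 0 genes and unpaired DESeq2 called 291 (2.28% of the 12745 genes it gave an adjusted p), with 0 of the 8 in each. Leaving out control replicate 3 raised the limma count to 300 genes, MMP2 among them (limma adjusted p = 0.0466). With the replicate number as a block (the paired fit), limma called 1717 genes (11.4%). Of the 8 genes it called 6, with 5 lower in siG9a (MMP2, MMP14, MMP16, TIMP1 and TIMP3; background 6.52% of genes lower) and 1 higher (TIMP2; background 4.86% higher). Of the 8898 genes at 10 CPM or more on average, a level that all 6 reached, the paired fit called 16.4%. Paired edgeR called 5 of the 8 (background 11.3%) and paired DESeq2 4 (10.2%). Paired DESeq2 gave no adjusted p for MMP9 and MMP15, and its background is of the 9532 genes with one. Leaving out replicate 1, 2, 3 or 4, paired limma called 4, 3, 5 and 6 of the 8, beside 6.47%, 4.31%, 7.87% and 9.2% of all genes. Without replicate 1, MMP9 was below the filter and 7 of the 8 were tested. The genes were chosen with results of these data known, so these counts are a description. The median log2 change of the 8 genes was −0.82, where the median over all genes tested was 0.015.

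**Figure D1:**
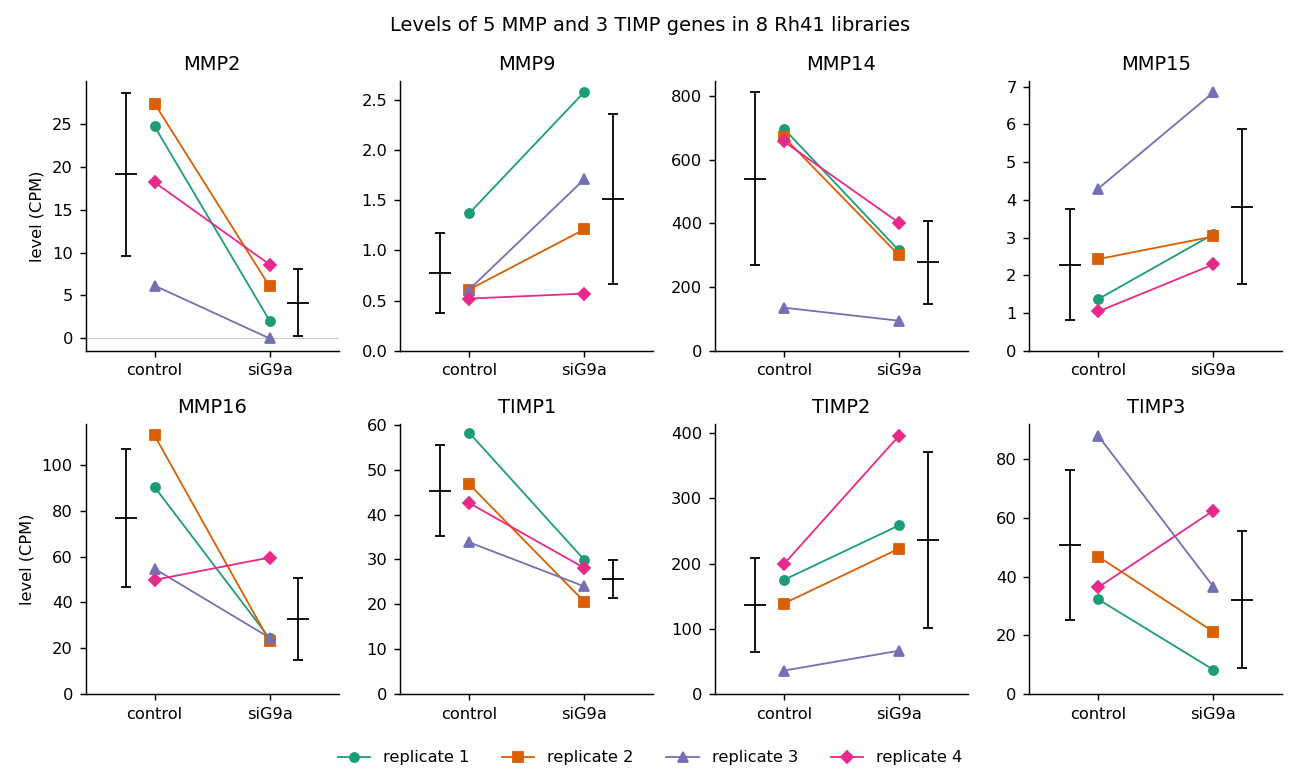
CPM of each gene (vertical axes, which differ between panels) in the control and siG9a libraries, with a line joining libraries of the same replicate number and black bars for the mean and SD of 4 libraries. MMP14, MMP2 and TIMP1 were lower along all 4 lines, and TIMP2, MMP15 and MMP9 were higher along all 4. MMP16 and TIMP3 were higher in siG9a along the replicate 4 line alone.

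Among the membrane-type enzymes, MMP14 (MT1-MMP, the main activator of the MMP2 precursor) was the highest gene of the 8 and lay above 97.8% of the genes tested. It measured 698, 671, 135 and 657 CPM in control replicates 1 to 4 and 315, 300.2, 94.2 and 402 CPM in siG9a. Control replicate 3 lay below all siG9a libraries but that of its own number, so the groups overlapped. The means were 540 ± 271 and 278 ± 130 CPM (SD, n = 4 each). The siG9a libraries were at 45.2%, 44.7%, 69.6% and 61.2% of the control with the same number. MMP14 fell in the paired fit, with a log2 change of −0.88 ± 0.145 (SE) and a limma adjusted p of 0.000258, against 0.544 (SE 0.54) in the unpaired fit. Without the replicate 3 libraries the means were 676 ± 20.5 and 339 ± 54.98 CPM (SD, n = 3 each) and the groups did not overlap. Groups of 3 separate more easily than groups of 4, and the share of all genes that did so was not computed. Leaving out the replicate 3 libraries, limma called MMP14 with the block (log2 change −1.004, adjusted p = 0.000929) and without it (adjusted p = 0.0149, in a fit that called 2.77% of genes).

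MMP16 (MT3-MMP), a relative of MMP14 anchored in the same way, measured 90.5, 113, 54.7 and 49.9 CPM in control and 24.2, 23.0, 24.6 and 59.6 CPM in siG9a. In 3 of 4 pairs siG9a was lower, at 26.8%, 20.4% and 44.9% of control, while in replicate 4 it was at 120% of control. That siG9a library lay above 2 control libraries, and the other siG9a libraries lay between 23.0 and 24.6 CPM. MMP16 fell in the paired fit (log2 change −1.24 ± 0.26 SE, limma adjusted p = 0.00266), against an adjusted p of 0.203 without the block. Without replicate 4 the paired log2 change was −1.74. The call was lost in the paired fit without replicate 2 (limma adjusted p = 0.0823) and in DESeq2 with the block (adjusted p = 0.111).

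MMP15 (MT2-MMP) was near the limit of detection, at 2 to 7 reads in control and 4 to 12 reads in siG9a. It measured 1.37, 2.43, 4.30 and 1.04 CPM in control and 3.09, 3.03, 6.85 and 2.29 CPM in siG9a. The siG9a value was above the control of its number in 4 of 4 pairs, the groups overlapped, and replicate 3 was the highest library of each group. The log2 difference of 0.57 ± 0.41 (SE) did not pass the test (limma adjusted p = 0.419 paired and 0.659 unpaired). Of all genes tested, 14.9% were likewise higher in every pair.

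MMP2, the gelatinase that MMP14 activates, had the largest change of the 8 genes. It measured 24.7, 27.3, 6.15 and 18.2 CPM in control (36, 45, 10 and 35 reads) and 2.06, 6.05, 0 and 8.60 CPM in siG9a (4, 10, 0 and 15 reads). The 0 of siG9a replicate 3 allows up to 3 reads, or 1.71 CPM. Only siG9a replicate 4 reached above a control library, that of replicate 3. The means were 19.1 ± 9.45 and 4.18 ± 3.87 CPM (SD, n = 4 each), and MMP2 was lower in 4 of 4 pairs, as were 15.3% of all genes tested. It fell in the paired fit (log2 change −2.23 ± 0.37 SE, limma adjusted p = 0.000306), against an adjusted p of 0.214 without the block. Because MMP2 was low, its log2 change depended on the pseudocount and was −3.18 with 0.1 and −1.39 with 5 in place of 1, called in both paired fits. Without the replicate 3 libraries the groups did not overlap, at 23.4 ± 4.72 and 5.57 ± 3.30 CPM (SD, n = 3 each). The share of all genes that separated in this way was not computed. Without the same libraries, limma called MMP2 with the block (log2 change −2.02, adjusted p = 0.00203) and without it (adjusted p = 0.0188).

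MMP9, the other gelatinase, rested on 16 reads in all 8 libraries. Control libraries held 2, 1, 1 and 1 reads and siG9a libraries 5, 2, 3 and 1 reads. All control libraries and 3 of the siG9a libraries were at or under the floor of 3 reads, so no fold is given. It did not pass the test in either fit (limma adjusted p = 0.574 paired and 0.709 unpaired).

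Among the inhibitors, TIMP2, which takes part in MMP2 activation as well as in inhibition, was the only gene of the 8 called higher. It measured 175, 139, 35.7 and 199 CPM in control and 258, 223, 66.2 and 396 CPM in siG9a. In each group replicate 3 was the lowest library, and for that reason the groups overlapped. Within numbers, siG9a was at 148%, 161%, 186% and 199% of control. The means were 137 ± 71.9 and 236 ± 135 CPM (SD, n = 4 each). TIMP2 rose in the paired fit (log2 change 0.78 ± 0.15 SE, limma adjusted p = 0.00104), against an adjusted p of 0.630 without the block. Without the replicate 3 libraries all siG9a values lay above all control values, at 292 ± 91.3 against 171 ± 30.4 CPM (SD, n = 3 each). The share of all genes that separated in this way was not computed. Without the same libraries, limma gave TIMP2 an adjusted p of 0.0116 paired and 0.114 unpaired.

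TIMP1, a secreted inhibitor of many MMPs, measured 58.3, 46.8, 33.8 and 42.6 CPM in control and 29.9, 20.6, 23.98 and 28.1 CPM in siG9a. It was the only one of the 8 genes whose groups of 4 did not overlap, with all siG9a values below all control values, as for 3.45% of all genes tested. The means were 45.4 ± 10.2 and 25.6 ± 4.19 CPM (SD, n = 4 each), and siG9a was at 51.3%, 44.0%, 70.9% and 66.0% of control within numbers. TIMP1 fell in the paired fit (log2 change −0.79 ± 0.21 SE, limma adjusted p = 0.0140), against an adjusted p of 0.237 without the block. The call was lost in the paired fits without replicate 1 (limma adjusted p = 0.0664) and without replicate 2 (0.136).

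TIMP3, the inhibitor that stays bound to the matrix, was the member with the least stable call. It measured 32.2, 46.8, 87.9 and 36.4 CPM in control and 8.25, 21.2, 36.5 and 62.5 CPM in siG9a. In 3 of 4 pairs siG9a was at 25.6%, 45.3% and 41.6% of control, and in replicate 4 it was at 172%. In contrast to MMP14, MMP2 and TIMP2, the highest control library was replicate 3. The log2 change was −0.86 ± 0.28 (SE), and the limma adjusted p was 0.0461 paired and 0.532 unpaired. This call was lost in the paired fits without replicate 1, 2 or 3 (limma adjusted p = 0.296, 0.215 and 0.204) and in edgeR and DESeq2 with the block (adjusted p = 0.0657 and 0.115). Without replicate 4 the paired log2 change was −1.40 (limma adjusted p = 0.000930), and without replicate 1 it was −0.53.

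**Figure D2:**
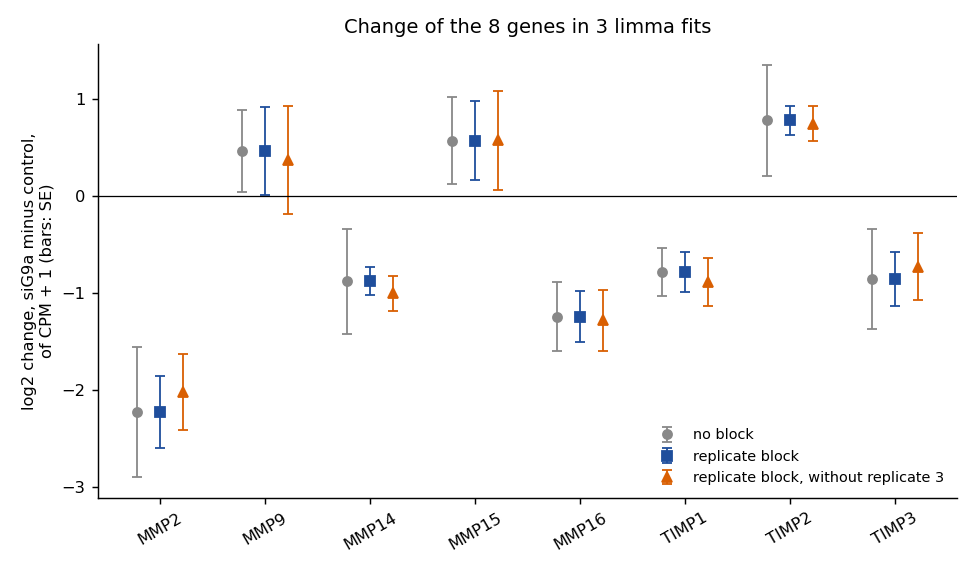
Log2 change of each gene (siG9a minus control, on the scale of CPM + 1; bars are the SE) in limma without a block, with the replicate number as a block, and with the block but without both replicate 3 libraries. In this balanced design the estimate of a gene is the same without and with the block, and only its SE differs. For MMP14 the SE was 0.54 without the block and 0.145 with it. Leaving out replicate 3, a fit to part of the same libraries, kept all 8 genes on their side of 0.

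Exons of some of these genes overlap exons of other genes in GENCODE release 29. They are MMP2 (AC007336.3, same strand), MMP9 (SLC12A5-AS1, antisense), MMP16 (AC090578.1, antisense) and TIMP2 (CEP295NL, same strand, and AC022966.1, antisense). Whether the counting used strand is not given in the sources used here, so reads from such overlaps cannot be told apart. TIMP1 and TIMP3 lie inside SYN1 and SYN3 without shared exons, and MMP14 and MMP15 overlapped no gene.

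MMP14 and TIMP2 moved in opposite directions, and their ratio within a library does not depend on the scaling between libraries. The ratio was 3.99 MMP14 reads per TIMP2 read in control replicate 1 (95% counting interval 3.48 to 4.58), 4.85 in replicate 2 (4.203 to 5.59), 3.79 in replicate 3 (2.84 to 5.07) and 3.31 in replicate 4 (2.95 to 3.71). In siG9a it was 1.22 (1.08 to 1.37), 1.35 (1.18 to 1.54), 1.42 (1.12 to 1.80) and 1.02 (0.915 to 1.13). The means were 3.98 ± 0.643 and 1.251 ± 0.178 (SD, n = 4 each). No siG9a library reached a control library, and the replicate 3 libraries, in which both genes were low, lay inside the range of the control group and just above the others in siG9a. The ratio was formed after both genes had been seen to change, so it is a description and has no test. The share of all gene pairs whose ratio separates in this way was not computed. The ratio describes the reads of 2 transcripts and says nothing of the amounts of protein.

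**Figure D3:**
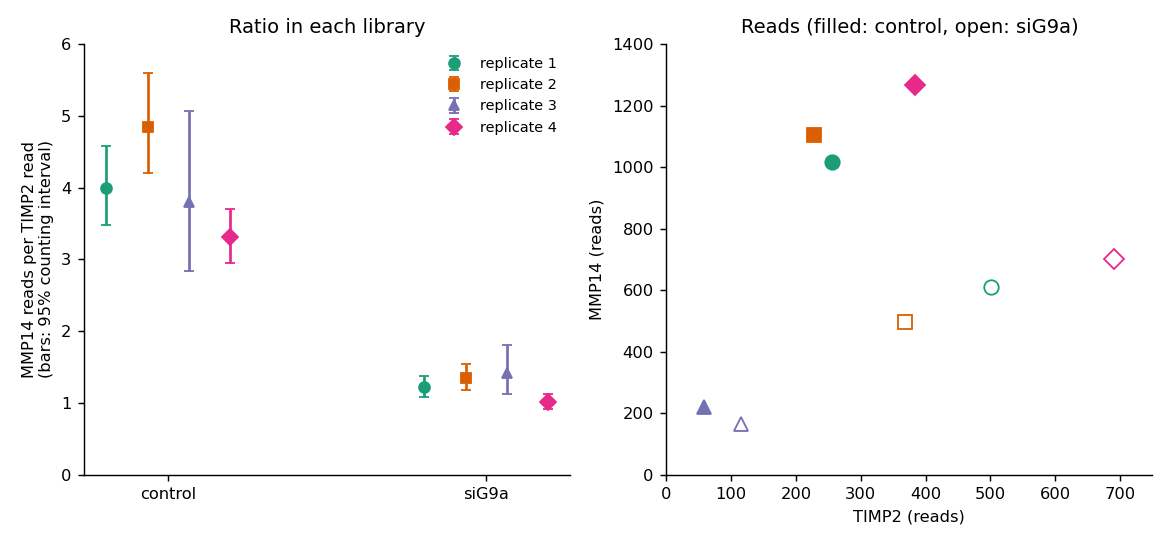
Left, MMP14 reads per TIMP2 read in each library (bars are 95% counting intervals); right, MMP14 reads against TIMP2 reads, with control libraries filled and siG9a libraries open. Control libraries lay at 3.31 to 4.85 and siG9a libraries at 1.02 to 1.42, the replicate 3 libraries included.

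The sum of the 5 proteases was 816, 815, 201 and 727 CPM in control replicates 1 to 4 and 347, 333, 127 and 473 CPM in siG9a. MMP14 made up 67.3 to 90.4% of these reads in control and 74.0 to 90.8% in siG9a. The sum of the 3 inhibitors was 265, 232, 157 and 278 CPM in control and 297, 264, 127 and 486 CPM in siG9a. TIMP2 made up 65.9%, 59.7%, 22.7% and 71.6% of the inhibitor reads in control and 87.1%, 84.2%, 52.3% and 81.4% in siG9a, a larger share in each pair. There were 2.62 ± 0.97 protease reads per inhibitor read in control and 1.10 ± 0.14 in siG9a (SD, n = 4 each). Control replicate 3, at 1.28, was only just above the highest siG9a library, at 1.26.

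The libraries were made from transcript ends, so that a transcript gives reads irrespective of its length and CPM levels can be set beside each other without a length correction. In control the order of mean levels was MMP14, TIMP2, MMP16, TIMP3, TIMP1, MMP2, MMP15 and MMP9. MMP14 was above TIMP2 in 4 of 4 control libraries, and TIMP1 was separated from MMP2, and MMP2 from MMP15, with no overlap of ranges. MMP14 with TIMP2, TIMP2 with MMP16, MMP16 with TIMP3, TIMP3 with TIMP1 and MMP15 with MMP9 had overlapping ranges. TIMP3 was above TIMP1 in 1 of 4 control libraries, replicate 3, and without replicate 3 its control mean was the lower one (38.5 ± 7.51 against 49.2 ± 8.12 CPM, SD, n = 3 each). In siG9a the order of means was the same. There MMP2 was above MMP15 in only 2 of 4 libraries and MMP16 above TIMP3 in 2 of 4, and TIMP2 was above MMP16 with no overlap. In a bulk culture, fewer cells with a transcript and less of it per cell cannot be told apart.

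**Figure D4:**
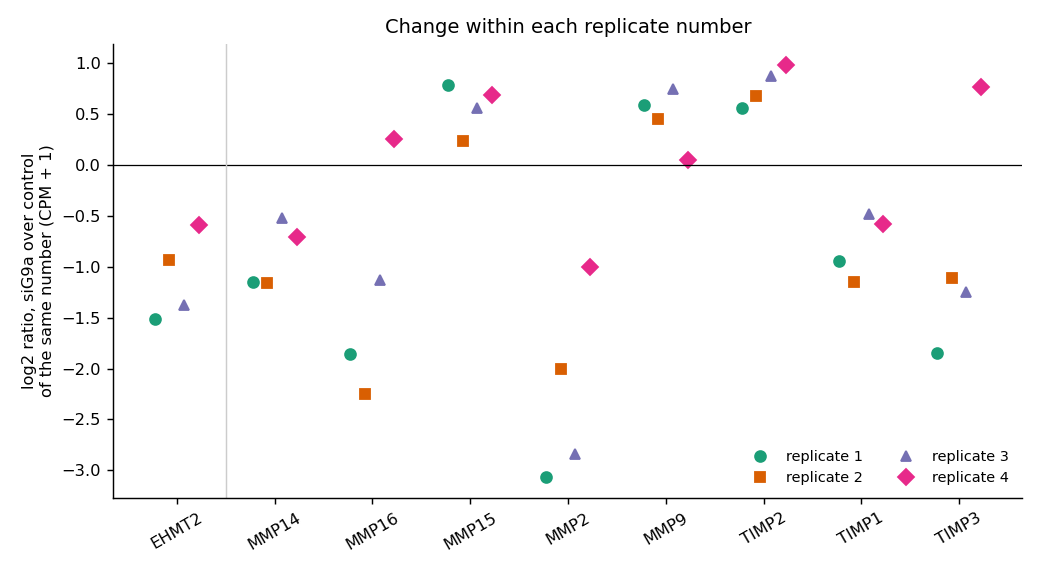
Log2 ratio of siG9a over the control library with the same replicate number (CPM + 1) for EHMT2 and the 8 genes, one symbol per number. EHMT2, MMP14, MMP2 and TIMP1 were below 0 for all 4 numbers. TIMP2 was above 0 for all 4, as were MMP15 and MMP9, which rested on few reads. Of all genes tested, 15.3% were lower and 14.9% higher in 4 of 4 pairs.

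EHMT2 was at 34.0%, 51.6%, 37.9% and 66.3% of control in replicates 1 to 4, so that the least depletion was in replicate 4. MMP2 was at 8.35%, 22.1%, 0% and 47.3% of control in the same order, with its least reduction in replicate 4 too. The replicate 4 pair was also the one in which MMP16 and TIMP3 were above control. TIMP2 did not follow this order, since its largest ratio, 199%, was in replicate 4, and MMP14 had its least reduction in replicate 3. These percentages rest on pairing by replicate number, which the labels do not explain. Deviations from the group means correlated only weakly for number 4 (r = 0.13) and number 2 (0.104). With 4 pairs no relation between the depletion of EHMT2 and these changes was tested.

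Of 18 other MMP genes, 3 reached a mean of 1 CPM and 7 were listed at 0 in all libraries, among them the collagenases MMP1, MMP8 and MMP13 and the small protease MMP7. The 3 tested genes, MMP3, MMP19 and MMP25, did not pass the test in either fit. MMP3, stromelysin-1, had means of 2.90 ± 1.66 and 8.09 ± 5.44 CPM in control and siG9a (SD, n = 4 each). It was higher in 3 of 4 pairs and did not pass (limma adjusted p = 0.0984 paired and 0.387 unpaired). Of 3 other inhibitors, TIMP4 and A2M were below the filter. RECK, a membrane-anchored MMP inhibitor, was lower in 4 of 4 pairs (18.1 ± 8.82 against 11.5 ± 7.42 CPM, SD, n = 4 each) without passing the test (limma adjusted p = 0.190 paired and 0.629 unpaired).

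ADAMTS proteases are secreted relatives of the membrane-bound ADAM proteases. Of 12 ADAMTS genes tested (19 listed), the paired fit called 3 lower and 0 higher, beside 6.52% lower and 4.86% higher over all genes, and their median log2 change was −0.58. ADAMTS5, an aggrecanase, measured 240, 210, 38.1 and 166 CPM in control and 27.3, 24.8, 2.85 and 47.0 CPM in siG9a. Replicate 3 was the lowest library in each group, and only siG9a replicate 4 lay above a control library. ADAMTS5 fell in the paired fit (log2 change −2.81 ± 0.215 SE, limma adjusted p = 1.78e-08), against an adjusted p of 0.159 without the block. ADAMTS14, which trims procollagen, fell from 22.1 to 6.12 CPM and ADAMTS15 from 69.7 to 36.3 CPM (limma, paired: adjusted p = 0.000699 and 0.0117). In replicate 4, however, ADAMTS15 was higher in siG9a, at 59.64 against 55.56 CPM. The call of ADAMTS15 was lost without replicate 1 or 2 (limma, paired: adjusted p = 0.146 and 0.113). Of 7 ADAM genes tested (9 listed), 1 was called, ADAM12, a protease of fusing and regenerating muscle, which fell from 71.7 ± 45.1 to 29.8 ± 15.9 CPM (SD, n = 4 each; limma adjusted p = 0.00170 paired and 0.488 unpaired).

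**Figure D5:**
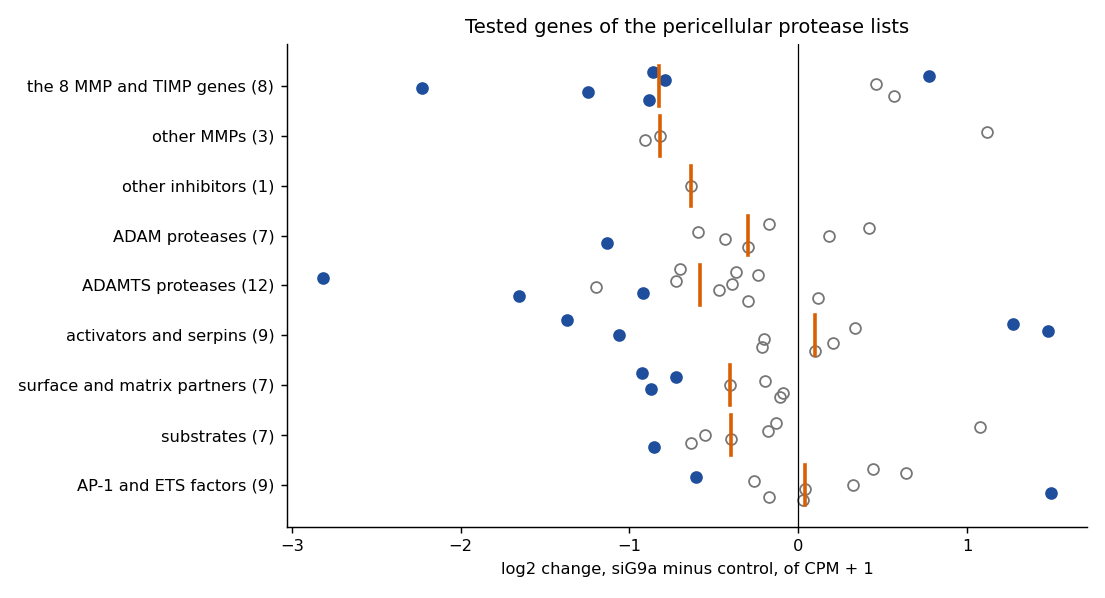
Log2 change (siG9a minus control, CPM + 1) of every tested gene in the 8 genes and in 8 lists of related genes, with the number tested in brackets. Filled points were called in the paired fit and orange lines are medians, which ran from −0.82 for the 8 genes to 0.098 for the activators and serpins.

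In the list of protease activators and serpins, the paired fit called 2 of 9 tested genes lower and 2 higher, beside 6.52% and 4.86% of all genes. PLAT (tissue plasminogen activator) fell from 32.8 to 15.5 CPM and SERPINE2 (protease nexin-1, an inhibitor of plasminogen activators and thrombin) from 162 to 65.6 CPM (limma, paired: adjusted p = 0.00440 and 1.04e-05). Without replicate 2 the adjusted p of PLAT was 0.0506. PLAU (urokinase) was called higher (limma, paired: adjusted p = 0.0295) on few reads, 3, 2, 2 and 2 in control and 39, 8, 3 and 8 in siG9a. All control libraries were at or under the floor of 3 reads, so no fold is given, and the call was lost without replicate 1, 2 or 4 (limma, paired: adjusted p = 0.247, 0.108 and 0.0820). DESeq2 gave no adjusted p for PLAU. FURIN, a convertase that activates MMP14, was at 68.1 ± 20.02 and 71.0 ± 10.3 CPM (SD, n = 4 each) (limma, paired: adjusted p = 0.806).

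Of 7 tested partners at the surface and in the matrix, 3 were called lower and 0 higher, beside 6.52% and 4.86% of all genes. CD44, a hyaluronan receptor that docks MMP14 and MMP9, fell from 56.3 ± 12.6 to 29.9 ± 4.66 CPM (SD, n = 4 each) (limma adjusted p = 0.00393 paired and 0.186 unpaired). Its siG9a values all lay below its control values, as for 3.45% of all genes tested. SPARC, a collagen-binding matrix protein, fell from 485 to 278 CPM and the proteoglycan SDC1 from 139 to 84.4 CPM (limma, paired: adjusted p = 0.00161 and 0.0170). In replicate 4, however, SDC1 was higher in siG9a, at 110.69 against 89.31 CPM. Of 7 substrates, 1 was called, COL1A1, which fell from 51.9 to 33.3 CPM (limma, paired: adjusted p = 0.0410). COL1A1 too was higher in siG9a in replicate 4, at 52.19 against 44.65 CPM. FN1, fibronectin, was at 2456 ± 1310 and 2265 ± 1248 CPM (SD, n = 4 each) and did not pass the test (limma, paired: adjusted p = 0.605). The call of SDC1 was lost without replicate 1, 2 or 3 (limma, paired: adjusted p = 0.121, 0.119 and 0.145) and that of COL1A1 without replicate 2 or 3 (0.268 and 0.368). COL1A1 also lost its call in edgeR and DESeq2 with the block (adjusted p = 0.0552 and 0.113).

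AP-1 and ETS proteins are transcription factors known to act on MMP and TIMP genes. Of 9 tested, the paired fit called 1 lower and 1 higher. JUN was called lower, with means of 818 CPM in control and 544 CPM in siG9a (limma, paired: adjusted p = 0.0223). In replicate 4 it was higher in siG9a, at 828 against 698 CPM. The call of JUN was lost without replicate 1, 2 or 3 (limma, paired: adjusted p = 0.214, 0.183 and 0.0753). ETV4 was called higher (limma, paired: adjusted p = 0.0227) on 3, 3, 1 and 2 reads in control, all at or under the floor, and 26, 12, 8 and 3 reads in siG9a. Its call was also lost without replicate 1, 2 or 3 (0.151, 0.107 and 0.0851), and DESeq2 gave it no adjusted p. Over all 8 lists the paired fit called 14 of 55 tested genes, 11 lower and 3 higher, beside 11.4% of all genes. Without the block limma called 0 of these 14.

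Genes with the most like pattern were taken by Pearson's r of log2(CPM + 1) over the 8 libraries, among the same 8898 genes. These libraries are shared by all genes, so that a library which stands apart (replicate 3 for MMP14, MMP2 and TIMP2, siG9a replicate 4 for MMP16) weighs on r, which is given as a description. MMP14 was most like HSPG2 (perlecan, r = 0.999) and DDR2 (a receptor for fibrillar collagen, r = 0.996). HSPG2 measured 542, 518, 93.5 and 491 CPM in control and 221, 214, 59.4 and 276 CPM in siG9a. MMP2 was most like MCAM (an adhesion molecule, r = 0.984) and SLMO1 (0.982), TIMP2 most like ID1 (an inhibitor of MYOD1 and related factors, 0.983) and HINT2 (0.980). For TIMP1 they were HHIP (0.980) and the cyclin CCND2 (0.971), for TIMP3 IFT57 (0.973) and UBE2M (0.970), and for MMP16 EEF1DP1 (0.977) and EPB41L1 (0.966).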

How the data were processed

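RNA from 8 Rh41 libraries was measured by QuantSeq 3′ mRNA sequencing (single-end, NextSeq500), per the labels' protocols. The deposited table gives CPM for 60234 genes to 2 decimals, per the file headers, and the authors' CPM relates each count to the reads assigned to genes in that library. The submitters' processing notes name FastQC 0.11.8, Trim Galore, STAR 2.5.0a, HTSeq 0.8.0 and edgeR 3.28, and the builds GRCh38 and hg19, without roles. Because 2 builds are named, no gene coordinates are given, and promoter windows carry RefSeq's own.

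Of the CPM values above 0, 100% in each library came out as whole reads (within rounding plus 0.05 reads). The recovered reads were used for ratios, for the floor of 3 reads and for edgeR 4.0.16 and DESeq2 1.42.0. edgeR called 1709 genes with the replicate block. The main test was limma 3.58.1 in R 4.3.3 (lmFit, eBayes with trend) on log2(CPM + 1), for the 15092 genes averaging 1 CPM or more. A fold change is on this scale and understates changes of low genes. Intervals are at 95% and cover counting error only.

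Replicate numbers come from the sample titles. Deviations from the group means correlated across genes at 0.50, 0.104, 0.67 and 0.13 for numbers 1 to 4. All were above 0.1, and on this ground the numbers were taken to pair the samples and the blocked values are given. Libraries of unlike number passed 0.1 too, so this cut does not separate pairs. The labels do not explain the numbers, and the unpaired fit was the main one, with the block as an alternative. This pairing is weak for numbers 2 and 4: control 2 with siG9a 4 gave 0.144, above both of their own pairs, and 6 of 8 libraries correlated best with their own number. No 2 libraries of a group agreed within counting noise (chi-square over its degrees of freedom 6.67 to 33.0). Scripts were tested on simulated reads.

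The genes, and the lists and rules, were chosen with earlier results of these data known. Every one of the 8 genes is named. From the 8 lists, genes called in the paired fit are named, at most 4 per list by adjusted p (1 of them is counted but not reported here), and MMP3, MMP19, MMP25, RECK, FURIN and FN1 were added after their values were seen. For genes with a like pattern, the 2 with the highest r are named for each member at 10 CPM or more. Alternatives were other pseudocounts, filters and scalings, eBayes without trend, the block, edgeR, DESeq2 and leaving out libraries or pairs.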

Additional observations from a re-analysis of the deposited data

Results flagged for a closer look

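A library far from the other 3 of its group (Dixon's ratio above its 95% critical value) was found in 6 of 54 groups examined, where chance gives about 2.70 (1 in 20), and the groups are not independent. In control replicate 3, MMP14 was at 135.28 CPM (others 657.36 to 697.82), the summed proteases at 201.1 CPM (others 727 to 816) and SERPINE2 at 55.96 CPM (others 185 to 211). In siG9a replicate 4, MMP16 was at 59.64 CPM (others 23.0 to 24.55). In siG9a replicate 1, PLAU was at 20.12 CPM (others 1.71 to 4.84). MMP9 was at 1.37 CPM in control replicate 1 (others 0.52 to 0.61), which is 2 reads against 1.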

How the results depend on the processing

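The log2 changes of the 8 genes kept their direction in 226 of 226 values under the alternatives, including every scaling, but not their size. With all 8 libraries, the block, the eBayes setting and the filter leave a limma estimate unchanged, so many of these values repeat it. All of them come from the same libraries, so the count is no independent support. Without the block, TIMP2 was at 0.22 without control replicate 3 and 1.30 without siG9a replicate 3, MMP14 at −1.46 and −0.43 in the same fits, and TIMP3 at −0.35 without siG9a replicate 1. Calls depended on the replicate block. Without the block and with all libraries, 0 genes were called, except 18 with no filter on low values and 291 with DESeq2, and 0 of the 8 genes in each. With the block, limma called 1717 genes (6 of the 8, 14 list genes), edgeR 1709 (5 and 15) and DESeq2 969 (4 and 10); DESeq2 without it called 1 list gene. Changed together with the block, a pseudocount of 0.1 gave 1363 genes (5 and 9), a pseudocount of 5 gave 1710 (5 and 14), median-ratio scaling 1693 (5 and 13) and, chosen after seeing the data, a mean of at least 5 CPM 1653 (5 and 10). In all 11 paired fits MMP2, MMP14 and TIMP2 were called, MMP16 and TIMP1 in 9 and TIMP3 in 2. Leaving out 1 library without the block gave 0 to 300 genes, 0 to 1 of the 8 and 0 to 3 list genes, the upper values without control replicate 3. With the block and without replicate 1, 2, 3 or 4, limma called 972, 653, 1180 and 1392 genes, 4, 3, 5 and 6 of the 8, and 8, 6, 12 and 15 list genes. The lowest counts came without replicate 2, where MMP16, TIMP1 and TIMP3 lost their calls. Without both replicate 3 libraries and without the block, also chosen after seeing the data, 415 genes, 2 of the 8 (MMP2 and MMP14) and 4 list genes were called. The log2 change of EHMT2, −1.10 with an adjusted p of 0.191 in limma without the block, was called in the 11 paired fits. It was −1.10 in limma with the block (also with a mean of at least 5 CPM), −1.09 in edgeR with it, −1.11 in DESeq2 with it, −1.12 and −1.01 with the block and pseudocounts of 0.1 and 5, −1.11 with median-ratio scaling and the block, −0.965, −1.155, −1.01 and −1.272 with the block and without replicate 1, 2, 3 or 4, and −1.355 to −0.845 without the block and without 1 library. The cause of these differences was not tested. Depth limits MMP9 and MMP15, at 1 to 12 reads a library, MMP2 in siG9a, at 0 to 15 reads, and PLAU and ETV4 in control, at 1 to 3 reads.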
